A study of Rattus norvegicus with 31 samples.

Results

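The genes described here encode molecular chaperones, their cochaperones and peptidyl-prolyl isomerases, followed in motor neurons of the rat tail after the spinal cord was cut above them. Members were taken by a symbol rule, which was chosen with earlier results of these data known. It took every probe set with a single gene symbol of the Hsp, Dnaj, Cct, Tcp1, Fkbp, Ppi, Bag, St13, Stip1 or Cdc37 families. Hspa5, Hsp90b1 and Hspb1 were left out. The rule found 102 probe sets of 80 genes among 11880 probe sets of 9769 genes with 1 symbol. Of the 80 genes, 60 had 1 probe set, 18 had 2 and 2 had 3. Stip1, Ppia, Hspa8, Hspa1a, Hspa1b and Hsp90aa1 are not among them and were not analysed here. In a symbol rule not every name is a chaperone: Hspbap1 carries the Hsp letters but is not itself a small heat shock protein.

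Chaperones bind unfolded stretches of other proteins and help them fold, assemble, cross membranes or be degraded. The Hsp70 proteins work in cycles of ATP binding and hydrolysis, J proteins (Dnaj) deliver clients and trigger the hydrolysis, and exchange factors such as Hsp110, Bag and Hspbp1 release the nucleotide. Chaperonins are barrels in which a protein folds alone: Hspd1 with its lid Hspe1 in mitochondria, and the CCT complex of Tcp1 and the Cct subunits in the cytosol, which folds actin and tubulin. Peptidyl-prolyl isomerases of the Fkbp and cyclophilin (Ppi) families turn the bond before proline, and motor neurons are known for a high threshold for inducing heat shock genes.

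Spinal cord tissue came from adult male Wistar rats whose cord had been transected completely at the second sacral segment, and from uninjured rats, for which the labels name no sham operation. Each of the 31 arrays held RNA of 1 animal: motor neurons back-labelled with Fluoro-Gold, cut by laser from segments S3 and S4 and amplified in 2 rounds. The groups were Control (uninjured, 4 animals), Spi-2 (6 animals, day 2), Spi-7 (5 animals, day 7), Spi-21 (8 animals, day 21) and Spi-60 (8 animals, day 60). Arrays of Spi-21 and Spi-60 had been made for an earlier study than those of Control, Spi-2 and Spi-7, so that late time and study cannot be told apart in any comparison of the late days with Control.

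Values are the deposited log2 expression summaries, and a difference of 1 is a change of 2-fold. Array medians lay between 5.95 and 6.1, and the correlation between any 2 arrays between 0.875 and 0.989. The interquartile range was 1.95 to 2.03 in Control, 1.92 to 2.05 in Spi-2, 1.75 to 2.01 in Spi-7, and, late, 1.74 to 1.89 (Spi-21) and 1.81 to 1.93 (Spi-60). Replicate 5 of Spi-7 and replicates 1 to 3 of Spi-21 stood apart from the other animals of their groups, and the calls of members in Spi-7 and Spi-21 are given further on without them. On the first principal component they had 18 and 26.4 to 36, against -23.8 to -14.7 and 2.9 to 7 in the others. Spi-60 was spread too, with 25.8, 18.3 and 29.5 in replicates 1, 2 and 5, 13.8 in replicate 6 and 1 to 6.6 in the others. Its calls without those replicates together were not fitted. The Gapdh control probe sets at the 3′ and 5′ ends, whose difference grows where RNA is shortened or copied incompletely, differed by a median of 1.88 in Control, 2.84 in Spi-2, 3.16 in Spi-7, 2.21 in Spi-21 and 3.53 in Spi-60. The Spi-21 arrays were split in it. Replicates 1 to 3 had 3.29, 3.54 and 2.9, the largest of the group, replicate 4 had 2.76, and replicates 5 to 8 lay between 1.13 and 1.66. Of the motor neuron markers, Nefh averaged 14.08 to 14.2 over the 5 groups and Isl1 5.64 to 5.77. Prph was higher than Control at each day, by 0.59, 0.78, 0.78 and 0.79 at days 2, 7, 21 and 60, and Slc5a7 was lower at days 2, 21 and 60, with changes of -1.18, -1.11 and -1.06 (limma, adjusted p under 0.05). Of 8 astrocyte probe sets, Gfap was higher at days 2, 21 and 60 (2.45, 1.34 and 1.83), Aldoc lower at days 2 and 7 (-0.91 and -0.82) and 1 of Slc1a3 lower at day 21 (-0.94); their summed level (log2) was 12.95 to 13.32 in Spi-2 and 12.94 to 13.64 in Control. Of 8 microglia markers 4 were higher in Spi-2 than in Control, with a summed level (log2) of 9.7 to 10.89 in Spi-2 and 8.68 to 8.95 in Control; the summed level was 9.16 to 10.54 in Spi-7, 8.61 to 10.98 (Spi-21) and 9.03 to 11.04 (Spi-60). Of 9 oligodendrocyte probe sets, 2, 1, 3 and 2 were lower at days 2, 7, 21 and 60 and 0 higher (limma, adjusted p under 0.05). A probe set of Mbp changed by -2.14, -1.66 and -1.28 at days 2, 7 and 21, and Mog and Mal were lower at days 21 and 60. The oligodendrocyte sum was 10.84 to 11.64 in Spi-2 and 11.12 to 12.4 in Control. What part the Gapdh difference or these other cells had in the results below was not tested beyond the covariate fit given beside them.

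The promoter stretches of 3 members that were lower at day 2 are shown because they hold the heat shock element, which the mitochondrial chaperonin pair shares. The RefSeq promoter windows of GRCr8 (250 bases before to 50 after each start) held an entry for 69 of the 80 genes. The heat shock element, searched as GAANNTTCNNGAA on both strands, stood in 5 of them (7.25%) and in 218 of 27457 genes in all (0.794%). The 5 were Hspd1, Hspe1, Hsph1, Cct4 and Dnaja1. Hspd1 lies on the minus strand of chromosome 9 (64073610 to 64084332) and Hspe1 on the plus strand next to it (64084327 to 64087415), so that the genes run in opposite directions and their windows share 211 bases with the same element, read from both sides. The stretches below are chr9:64084237-64084304 on the plus strand for Hspe1, chr9:64084237-64084287 on the minus strand for Hspd1 and chr12:10427307-10427367 on the plus strand for Hsph1. Capitals mark the matches, which overlap each other in Hspe1 and Hspd1 (2 matches) and are single in Hsph1.
Hspe1: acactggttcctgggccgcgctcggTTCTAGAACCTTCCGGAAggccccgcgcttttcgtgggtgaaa
Hspd1: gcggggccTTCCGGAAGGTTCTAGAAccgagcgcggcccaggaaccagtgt
Hsph1: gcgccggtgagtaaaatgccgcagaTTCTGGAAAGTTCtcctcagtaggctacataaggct
The match lay 65 to 48 bases before the start in Hspe1, 242 to 225 before the start used for the Hspd1 window and 36 to 24 before the start in Hsph1. The start of the Hspd1 window lies inside the gene bounds given above, and so does the match. In Cct4 and Dnaja1 it lay past the start, at bases 26 to 38 and 10 to 22. A match describes these letters only.

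Over the 5 groups, 24 of the 102 member probe sets (23.5%, 23 genes) passed limma's moderated F-test at an FDR of 0.02, beside 16.2% of all 12913 probe sets tested. Most members that differed from Control were lower after injury. In the 4 contrasts with Control (limma, adjusted p under 0.05), Spi-2 had 13 members lower and 2 higher (12.7% and 1.96%), beside 4.98% and 3.9% of all probe sets. Spi-7 had 6 lower and 2 higher (5.88% and 1.96%), beside 1.67% and 0.914%. Spi-21 had 24 lower and 7 higher (23.5% and 6.86%), beside 10.7% and 5.94%, and Spi-60 had 28 lower and 7 higher (27.5% and 6.86%), beside 9.89% and 7.2%. The share of members called lower thus stood above that of all probe sets at each day, and the share called higher was near it or below it except at day 7, where it rested on 2 probe sets of Fkbp1a. Without replicates 1 to 3 of Spi-21, 6 of the 102 members were called in Spi-21, all lower, beside 5.27% of all probe sets in either direction. At day 21 the share of members was thus near that of all probe sets without those arrays. The median change of the members was -0.10, -0.11, -0.15 and -0.13 at days 2, 7, 21 and 60, beside medians of 0 to 0.01 over all probe sets. Each array pools laser-cut cells of 1 animal, so that fewer cells of a type and less RNA per cell cannot be told apart. The 4 contrasts share the same 4 Control animals, and their counts are not independent of each other.

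**Figure D1:**
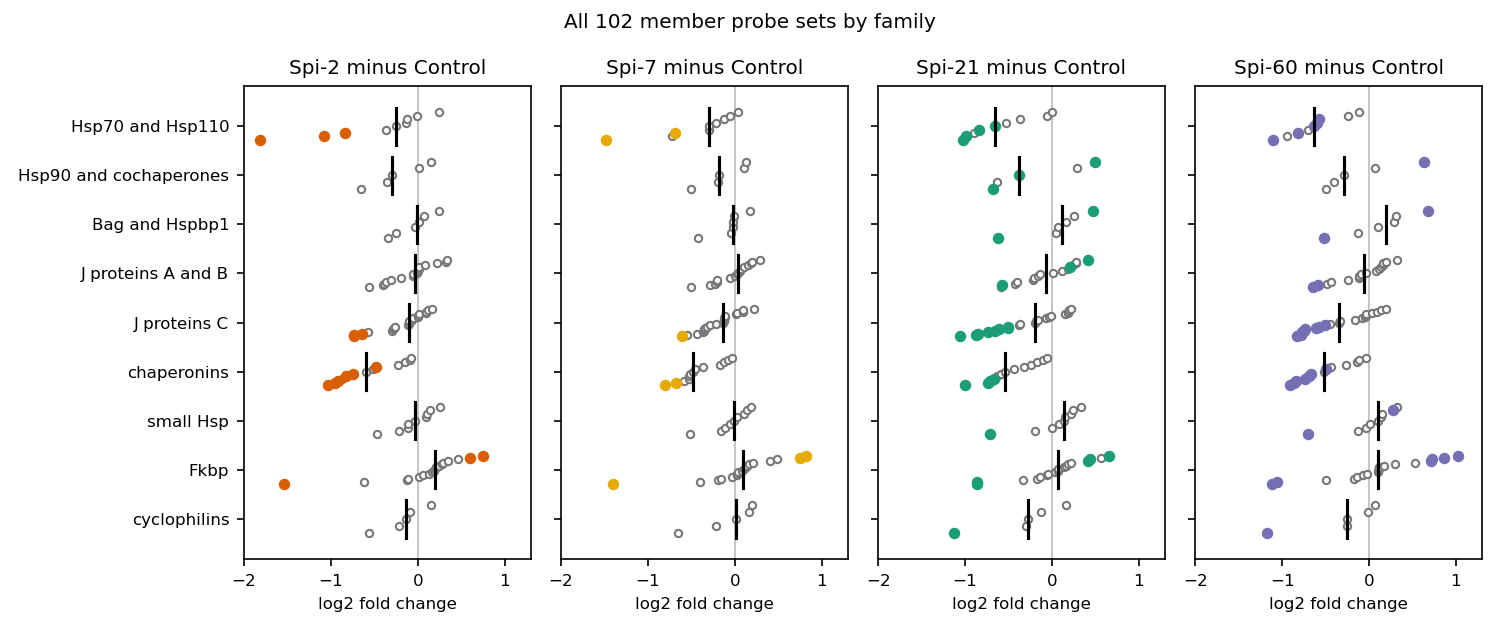
Log2 fold change against Control of the 102 member probe sets (x axis) in Spi-2, Spi-7, Spi-21 and Spi-60, by family (y axis). Filled points passed the test (limma, adjusted p under 0.05), open points did not, and bars are family medians. All 13 chaperonin probe sets lie below 0 in each panel, with medians between -0.60 and -0.48, whereas the Fkbp medians lie between 0.07 and 0.19.

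Within the study of the early days alone (15 arrays of Control, Spi-2 and Spi-7, the more recent study), 8 members (7.84%) passed the F-test at an FDR of 0.02, beside 3.01% of all probe sets: Hspa13, Hsph1, Hspe1, Tcp1, Cct7, Dnajc7, Fkbp2 and 1 probe set of Fkbp1a. Their adjusted p ran from 0.000425 for Hspa13 and Fkbp2 to 0.0098 for Dnajc7. Directly compared, Spi-7 and Spi-2 differed for 0 members, beside 0% of all probe sets (limma, adjusted p under 0.05), with 3 members and 514 of all probe sets at an unadjusted p under 0.05. Spi-60 and Spi-21 also differed for 0 members, beside 0.00774% of all probe sets, with 13 members and 1340 of all probe sets at an unadjusted p under 0.05. No member was thus shown to differ between days 2 and 7 or between days 21 and 60, and day 21 was not compared with day 7, which lie in different studies.

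Called members followed many different courses over the days. Lower than Control at all 4 days were 5 genes: Hspa13, Hsph1, Hspe1, Tcp1 and Fkbp2 by 1 of its 2 probe sets. Higher at all 4 days was 1 gene, Fkbp1a, by 2 of its 3 probe sets. With the Gapdh difference as covariate, Hspa13, Fkbp2 and Fkbp1a by 1398829_at were still called at all 4 days. Hsph1 then missed day 7 (adjusted p = 0.0759, limma), Hspe1 days 7 and 60 (0.105 and 0.0563) and Tcp1 days 7 and 60 (0.142 and 0.15). Fkbp1a by 1398828_at missed days 2, 7 and 60 (0.231, 0.251 and 0.115). Without the covariate, only 2 probe sets were called early and not late, Cct4 and Hspd1 at day 2, whereas 28 were called late and not early, 21 of them lower and 7 higher. More was called late over all probe sets too. Lower were 4.98% and 1.67% at days 2 and 7 and 10.7% and 9.89% at days 21 and 60. Higher were 3.9% and 0.914%, and late 5.94% and 7.2%. The late groups held more animals and came from another study, and these courses were not counted over all probe sets. At no day were 59 probe sets of 48 genes called.

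**Figure D2:**
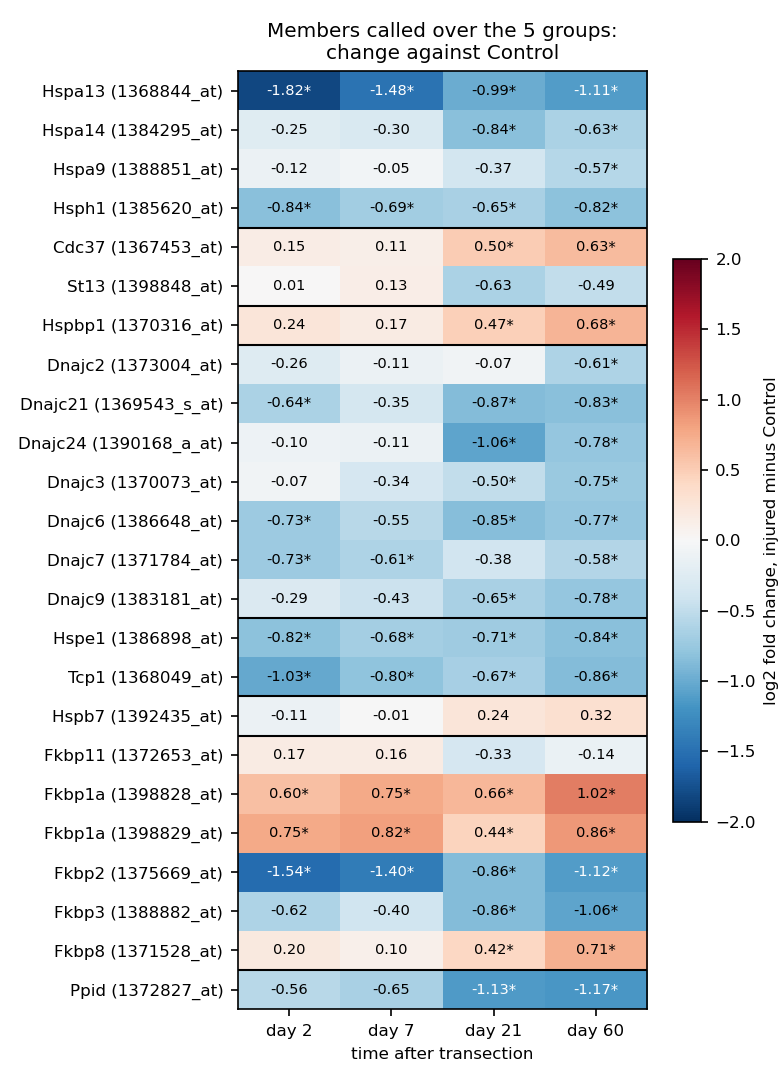
Log2 fold change against Control (colour and printed value) of the 24 member probe sets called over the 5 groups, at days 2, 7, 21 and 60, with lines between families. Asterisks mark changes that passed the test at that day; Hspa13 and Fkbp2 have their largest change at day 2 (-1.82 and -1.54), Ppid and Fkbp3 theirs at day 60 (-1.17 and -1.06).

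Among the Hsp70 and Hsp110 genes, 4 of 9 probe sets passed the F-test (44.4%), beside 16.2% of all probe sets. All calls at any day were lower than Control. Hspa13, an Hsp70-like ATPase of the endoplasmic reticulum that lacks the usual client-binding part, had the largest fall of all members at days 2 and 7. Its values were 7.72, 7.81, 7.84 and 8.04 in the Control animals. The Spi-2 animals lay between 5.44 and 6.77 (median 5.97). The Spi-7 animals had 5.97, 6.24, 6.39, 6.51 and 6.74. Every injured animal of every group lay below every Control animal, since Spi-21 reached at most 7.17 (lowest 6.41, median 6.97) and Spi-60 at most 7.26 (lowest 6.4, median 6.65). The late changes were -0.99 ± 0.19 at day 21 and -1.11 ± 0.19 at day 60 (SE, adjusted p = 0.00102 and 0.000293, limma).

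Hsph1, the Hsp110 protein that exchanges the nucleotide of Hsp70 and helps it to break up aggregates, showed the same separation at every day. Its probe set was dim: Control animals had 5.52, 5.68, 5.72 and 5.92, whereas the array medians lay between 5.95 and 6.1. It belonged to the dimmest 25% of probe sets, so that its calls were not tested in the fit that left those out. Spi-2 animals lay between 4.56 and 5.16 (median 4.88), and Spi-7 animals had 4.96, 4.98, 4.99, 5.02 and 5.13. Late, Spi-21 lay between 4.75 and 5.34 (median 5.05) and Spi-60 between 4.23 and 5.2 (median 4.93). No injured animal reached the lowest Control animal, and the changes were -0.84, -0.69, -0.65 and -0.82 at days 2, 7, 21 and 60 (SE 0.14 to 0.15, adjusted p between 0.000298 and 0.00999, limma). Hspa4l, another Hsp110 protein, was lower at day 2 (-1.08 ± 0.28, SE, adjusted p = 0.012) and at day 21 (-1.02 ± 0.26, adjusted p = 0.00861) and missed the F-test (adjusted p = 0.0221, limma); it was named after its values were seen.

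Hspa14, Hspa4 and Hspa9 were called late only, and neither probe set of Hspa2 was called at any day. Hspa14, an Hsp70 that works at the ribosome, averaged 6.91 ± 0.37 in Spi-21 (SD, n = 8) and 7.75 ± 0.34 in Control (SD, n = 4), a change of -0.84 (adjusted p = 0.00458, limma). The highest Spi-21 animal, at 7.48, lay just under the lowest Control animal, at 7.49. Without replicates 1 to 3 of Spi-21 the call was lost (change -0.66, adjusted p = 0.0528). Hspa9, the mitochondrial Hsp70, was called at day 60 only, at 7.36 to 7.9 in Spi-60 (median 7.73) against 8.08, 8.29, 8.31 and 8.39 in Control. That change of -0.57 ± 0.15 (SE, adjusted p = 0.00932, limma) separated the groups, but a second probe set of Hspa9 had -0.24 at day 60 and was not called.

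Among the chaperonins all 13 probe sets of the 10 genes had changes below 0 at each of the 4 days. In Spi-2, 6 of the 13 were called lower (46.2%), in Spi-7 2, in Spi-21 4 and in Spi-60 7 (53.8%). None was called higher. Of all probe sets, 4.98%, 1.67%, 10.7% and 9.89% were called lower at these days. The median change of the 13 at days 2, 7, 21 and 60 was -0.60, -0.48, -0.54 and -0.52. With the Gapdh covariate no chaperonin call in Spi-7 or Spi-60 held, whereas all in Spi-21 held. In Spi-2 those of Cct4, Hspd1, Hspe1 and Tcp1 held. Without the Spi-21 animals that stood apart on the first principal component, only Hspe1 kept its call in Spi-21. Hspe1, the lid of the mitochondrial barrel, had 11.31, 11.34, 11.44 and 11.53 in Control. In Spi-2 it lay between 10.37 and 10.88 (median 10.58), and the Spi-7 animals had 10.62, 10.66, 10.67, 10.84 and 10.85. The Spi-21 animals lay between 10.24 and 11.03 and the Spi-60 animals between 10.1 and 10.89, so that the Control animals stood above all injured animals. The changes were -0.82, -0.68, -0.71 and -0.84 at days 2, 7, 21 and 60 (SE 0.14 to 0.15, adjusted p between 0.000223 and 0.0114, limma).

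Hspd1, the barrel of the same pair, was called at day 2 only, at -0.75 ± 0.19 (SE, adjusted p = 0.012, limma). Its Spi-2 animals lay between 9.98 and 10.91 (median 10.14), against 10.84, 11.01, 11.01 and 11.18 in Control, so that the groups overlapped by 1 animal. At days 7, 21 and 60 its changes were -0.48, -0.44 and -0.44 and missed the threshold (adjusted p = 0.215, 0.0848 and 0.0891, limma). The difference in change between Hspe1 and Hspd1, the genes with the shared promoter stretch, was not tested. Of the 5 members with the heat shock element, Hspd1, Hspe1, Hsph1 and Cct4 were lower at day 2, beside 4.98% of all probe sets. Hspd1 and Hspe1 share the same element, and calls among the other genes that hold it were not counted. Neither probe set of Dnaja1 was called (changes -0.31 and 0.01 at day 2). Cct4 had 7.39 to 8.6 in Spi-2 (median 7.75), against 8.34, 8.57, 8.96 and 9.27 in Control, a change of -0.95 ± 0.22 (SE, adjusted p = 0.00525, limma), with 1 Spi-2 animal in the range of Control; Cct4 and Hspd1 were named after their values were seen.

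Tcp1, the alpha subunit of the CCT complex, was lower at all 4 days. Control animals had 9.73, 9.73, 9.98 and 10.12. The Spi-2 animals lay between 8.58 and 9.3 (median 8.79), and the Spi-7 animals at 9.01, 9.05, 9.05, 9.1 and 9.22. The early groups did not overlap with Control, nor did Spi-60 (8.69 to 9.51, median 8.94), whereas 1 of the 8 Spi-21 animals reached 10.03. The changes were -1.03, -0.80, -0.67 and -0.86 at days 2, 7, 21 and 60 (SE 0.18 to 0.20, adjusted p between 0.000756 and 0.0217, limma). Leaving out Control replicate 3 or 4 or Spi-7 replicate 1 ended the call at day 7. The Gapdh covariate ended the calls at days 7 and 60 (adjusted p = 0.142 and 0.15, limma). Of the other CCT subunits Cct7 had the smallest called change at day 2 (-0.48 ± 0.14, SE, adjusted p = 0.0266, limma).

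**Figure D3:**
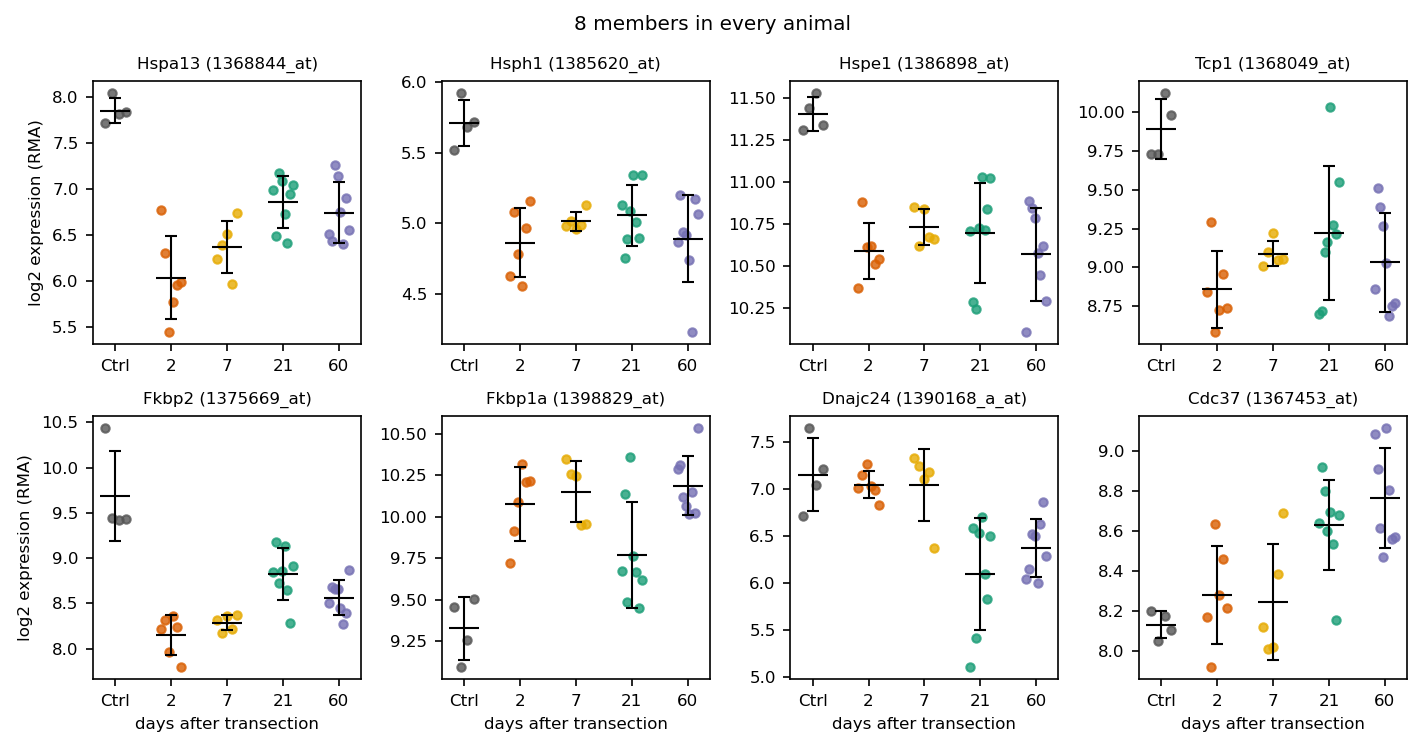
Log2 expression (y axes, each with its own range that does not start at 0) of 8 members in every animal, from Control to day 60 (x axes). Points are animals, and bars give the mean and SD of each group. Control animals stand above all injured animals for Hspa13, Hsph1, Hspe1 and Fkbp2; Dnajc24 and Cdc37 overlap with Control at days 2 and 7 and not, or little, at days 21 and 60.

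The Fkbp isomerases moved in both directions. Fkbp2, an isomerase of the endoplasmic reticulum, was lower at every day by its first probe set (1375669_at). Its late animals lay between 8.29 and 9.18 in Spi-21 (median 8.85) and between 8.28 and 8.87 in Spi-60 (median 8.58), against 9.42, 9.44, 9.45 and 10.44 in Control. No animal of the groups overlapped, although 1 Control animal stood far above the other 3. Without that animal, Control replicate 1, the change at day 2 was -1.29 instead of -1.54 and was still called (adjusted p = 1.66e-05, limma). A second probe set (1380500_s_at) was called at no day, with 10.57 to 11.35 in Spi-60 and 11.17 to 12.05 in Control.

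Fkbp1a, the small cytosolic isomerase that binds the drugs tacrolimus and rapamycin and sits on calcium release channels, was the only gene higher at all 4 days. Its probe set 1398829_at had 9.09, 9.26, 9.46 and 9.5 in Control. The Spi-2 animals lay between 9.72 and 10.32 (median 10.15), and the Spi-7 animals had 9.95, 9.96, 10.25, 10.26 and 10.35. Both early groups lay above every Control animal, as did Spi-60 (10.02 to 10.53, median 10.13), whereas Spi-21 overlapped with Control (9.45 to 10.36, median 9.67). The changes were 0.75, 0.82, 0.44 and 0.86 at days 2, 7, 21 and 60 (SE 0.14 to 0.16, adjusted p between 0.000202 and 0.0319, limma). Probe set 1398828_at changed by 0.60, 0.75, 0.66 and 1.02 and was also called at each day, but with the Gapdh covariate at day 21 only. The third, 1369621_s_at, was called at day 60 alone (0.73 ± 0.22, SE, adjusted p = 0.0191, limma), and with the Gapdh difference as covariate its change there was 0.10.

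Fkbp8, an isomerase anchored in the outer membrane of mitochondria that binds Bcl2, was higher late. Spi-60 animals had 7.07 to 7.57 (median 7.39), against 6.42, 6.52, 6.75 and 6.82 in Control, and the groups did not overlap. The change was 0.71 ± 0.13 at day 60 and 0.42 ± 0.13 at day 21 (SE, adjusted p = 0.000429 and 0.0225, limma), beside 0.20 and 0.10 at days 2 and 7 without a call. Fkbp3, a nuclear isomerase, was lower late, at 9.18 to 10.26 in Spi-60 (median 9.78), against 10.53, 10.81, 10.91 and 11.17 in Control. Its change at day 60 was -1.06 ± 0.26 (SE, adjusted p = 0.00525, limma). Fkbp11, an isomerase of secretory cells, passed the F-test (adjusted p = 0.00272, limma) but differed from Control at no day, with changes of 0.17, 0.16, -0.33 and -0.14.

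Of the 5 cyclophilins only Ppid, an isomerase that also binds Hsp90 as a cochaperone, was called, and it had the largest change of any called member at days 21 and 60. Spi-21 animals lay between 8.18 and 10.12 (median 9.28) and Spi-60 animals between 8.79 and 9.4 (median 9.15), against 10.15, 10.35, 10.36 and 10.41 in Control. Neither late group overlapped with Control, although the highest Spi-21 animal nearly reached the lowest Control animal. The changes were -1.13 ± 0.28 at day 21 and -1.17 ± 0.28 at day 60 (SE, adjusted p = 0.00619 and 0.00408, limma). At day 7 the 5 animals had 8.58, 9.91, 9.91, 9.92 and 10.01, all below Control, with replicate 5 far below the rest and no call (-0.65, adjusted p = 0.285). Without replicates 1 to 3 of Spi-21 the call at day 21 was lost, and with the Gapdh covariate that at day 60 (change -0.73, adjusted p = 0.253).

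Among the J proteins, class C held most of the calls. Of its 21 probe sets, 7 passed the F-test (33.3%), and 8 were called lower in Spi-21 and 9 in Spi-60, with none called higher. Of the 16 probe sets of classes A and B, which hold the general partners of Hsp70, 0 passed the F-test with limma, with 5 at an unadjusted p under 0.05, and 3 were called in Spi-21 and 2 in Spi-60. The nearest was a probe set of Dnajb5 (1375762_at, adjusted p = 0.0253, limma), whose Spi-21 animals lay between 4.85 and 5.66 and whose Control animals had 4.77, 4.88, 4.9 and 5.27. Of its other probe sets, 1372144_at and 1384511_at were higher in Spi-21 by 0.41 and 0.21 (adjusted p = 0.0338 and 0.0441, limma), the second being the smallest called change at that day.

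Dnajc21, a J protein of ribosome production, was lower at days 2, 21 and 60. The Spi-2 animals lay between 5.16 and 5.93 (median 5.43), Spi-21 animals between 4.71 and 5.78 (median 5.23) and Spi-60 animals between 4.98 and 5.65 (median 5.23), against 5.88, 6.1, 6.24 and 6.25 in Control. Both late groups lay below Control, and Spi-2 overlapped by 1 animal. The changes were -0.64, -0.87 and -0.83 (SE 0.16 to 0.17, adjusted p = 0.0152, 0.000754 and 0.000799, limma). Dnajc24, which takes part in making diphthamide on a translation elongation factor, changed by -0.10 and -0.11 at days 2 and 7 and by -1.06 ± 0.23 at day 21 and -0.78 ± 0.23 at day 60 (SE, adjusted p = 0.00327 and 0.02, limma). Its Spi-21 animals lay between 5.1 and 6.7 (median 6.3), against 6.71, 7.03, 7.21 and 7.64 in Control, with no overlap.

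Dnajc2, the J protein that sits on ribosomes with Hspa14, was called at day 60 only. Spi-60 animals had 7.31 to 7.9 (median 7.56), against 8.13, 8.13, 8.27 and 8.36 in Control, and 7.91 to 8.67 in Spi-21, so that Spi-60 lay below both groups. The change against Control was -0.61 ± 0.13 (SE, adjusted p = 0.0021, limma). Spi-60 against Spi-21 was called only without replicates 1 to 3 of Spi-21 (change -0.63, adjusted p = 0.0446; adjusted p = 0.168 with all 8 animals). Dnajc7, which links Hsp70 and Hsp90, was called at days 2, 7 and 60: 7.27 to 7.57 in Spi-2 (median 7.48) and 7.37, 7.48, 7.54, 7.72 and 7.77 in Spi-7, against 7.84, 8, 8.29 and 8.63 in Control. Both early groups lay below Control (-0.73 and -0.61, adjusted p = 0.00151 and 0.0213, limma). Spi-60 had 7.26 to 8 (median 7.6) and reached into the range of Control, with a change of -0.58 (adjusted p = 0.00417, limma).

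Dnajc6, the neuronal J protein auxilin that strips clathrin from vesicles, was lower late by both of its probe sets, with changes of -0.74 and -0.85 in Spi-21 and of -0.74 and -0.77 in Spi-60 (adjusted p between 0.00454 and 0.0176, limma). Dnajc9, a histone chaperone, changed by -0.65 at day 21 and -0.78 at day 60, and its Spi-60 animals (7.79 to 8.53) lay below Control (8.84 to 9.02). Dnajc3, a J protein of the endoplasmic reticulum that assists Hspa5, changed by -0.50 at day 21 and -0.75 at day 60 (adjusted p = 0.0496 and 0.00379, limma) and overlapped with Control at both days, since 1 Control animal was at 7.3. Its promoter is shown because it alone among the 69 held the element of the endoplasmic reticulum stress response, searched as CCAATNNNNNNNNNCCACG on both strands (21 of 27457 genes, 0.0765%). The stretch is chr15:102432509-102432577 on the plus strand, with the match, 133 to 115 bases before the start, in capitals.
Dnajc3: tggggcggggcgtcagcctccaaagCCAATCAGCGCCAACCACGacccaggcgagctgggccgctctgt
The same element stood in the windows of Hspa5 and Hsp90b1, chaperones of the same compartment outside the members. Hsp90b1 was lower in Spi-60 (-0.76 ± 0.19, SE, adjusted p = 0.00645, limma). It was also lower at days 2 and 7 (-0.79 and -0.78, adjusted p = 0.0119 and 0.0353, limma), with -0.53 at day 21 and no call. Hspa5 was lower at day 60 (-0.53 ± 0.14, SE, adjusted p = 0.0101, limma) and at day 21 (-0.42, adjusted p = 0.0411). At days 2 and 7 Hspa5 changed by -0.41 and -0.27 without a call. Hspb1, the small heat shock protein that the rule also left out, was higher in Spi-2 and Spi-60 (0.95 and 0.83, adjusted p = 0.00382 and 0.00423, limma), with 0.65 and 0.54 at days 7 and 21 and no call.

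A partner of Hsp90 and an exchange factor of Hsp70 were higher late. Cdc37, which brings protein kinases to Hsp90, lay between 8.16 and 8.92 in Spi-21 (median 8.66) and between 8.47 and 9.11 in Spi-60 (median 8.71), against 8.05, 8.1, 8.17 and 8.2 in Control. Spi-60 lay above every Control animal, and 1 Spi-21 animal within their range. The changes were 0.50 ± 0.14 and 0.63 ± 0.14 (SE, adjusted p = 0.0175 and 0.00292, limma). Hspbp1, an exchange factor that inhibits Hsp70, had 6.89 to 7.37 in Spi-21 (median 7.1) and 7.07 to 7.78 in Spi-60 (median 7.18), against 6.53, 6.57, 6.67 and 6.77 in Control. Neither late group overlapped with Control (changes 0.47 and 0.68, adjusted p = 0.0102 and 0.000473, limma). Bag5, another exchange factor, was lower in Spi-21 and Spi-60 instead (-0.62 and -0.52, adjusted p = 0.00758 and 0.0191, limma) and was named after its values were seen. St13, an Hsp70 cochaperone, passed the F-test (adjusted p = 0.0164, limma) and no contrast with Control, with changes of 0.01, 0.13, -0.63 and -0.49.

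Hsp90ab1, the constitutive cytosolic Hsp90, had probe sets that differed late. Probe set 1375336_at was lower in Spi-21, at 6.25 to 7.13 (median 6.65) against 7.23, 7.28, 7.5 and 7.57 in Control, with no overlap (-0.68 ± 0.22, SE, adjusted p = 0.032, limma). Probe set 1375335_at had a change of 0.29 at day 21 and was called at no day. At days 2 and 7 both changes were below 0, at -0.65 and -0.50 by 1375336_at and -0.35 and -0.18 by 1375335_at, without a call. With the Gapdh covariate 1375336_at was called lower at all 4 days (-0.95, -0.88, -0.79 and -0.97, adjusted p between 0.00635 and 0.0424, limma). Of the 9 probe sets grouped as small heat shock proteins, which include Hspbap1, 1 passed the F-test, Hspb7 (1392435_at), known from heart and skeletal muscle. It differed from Control at no day (changes -0.11, -0.01, 0.24 and 0.32). Its other probe set, 1372649_at, was higher in Spi-60 by 0.28, the smallest called change at that day (adjusted p = 0.0407, limma). Hspb6 missed the F-test and was lower in Spi-21 and Spi-60 (-0.71 and -0.7, adjusted p = 0.0295 and 0.0299, limma). Each of these calls was lost under 8 alternatives, and Hspb6 was named after its values were seen.

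**Figure D4:**
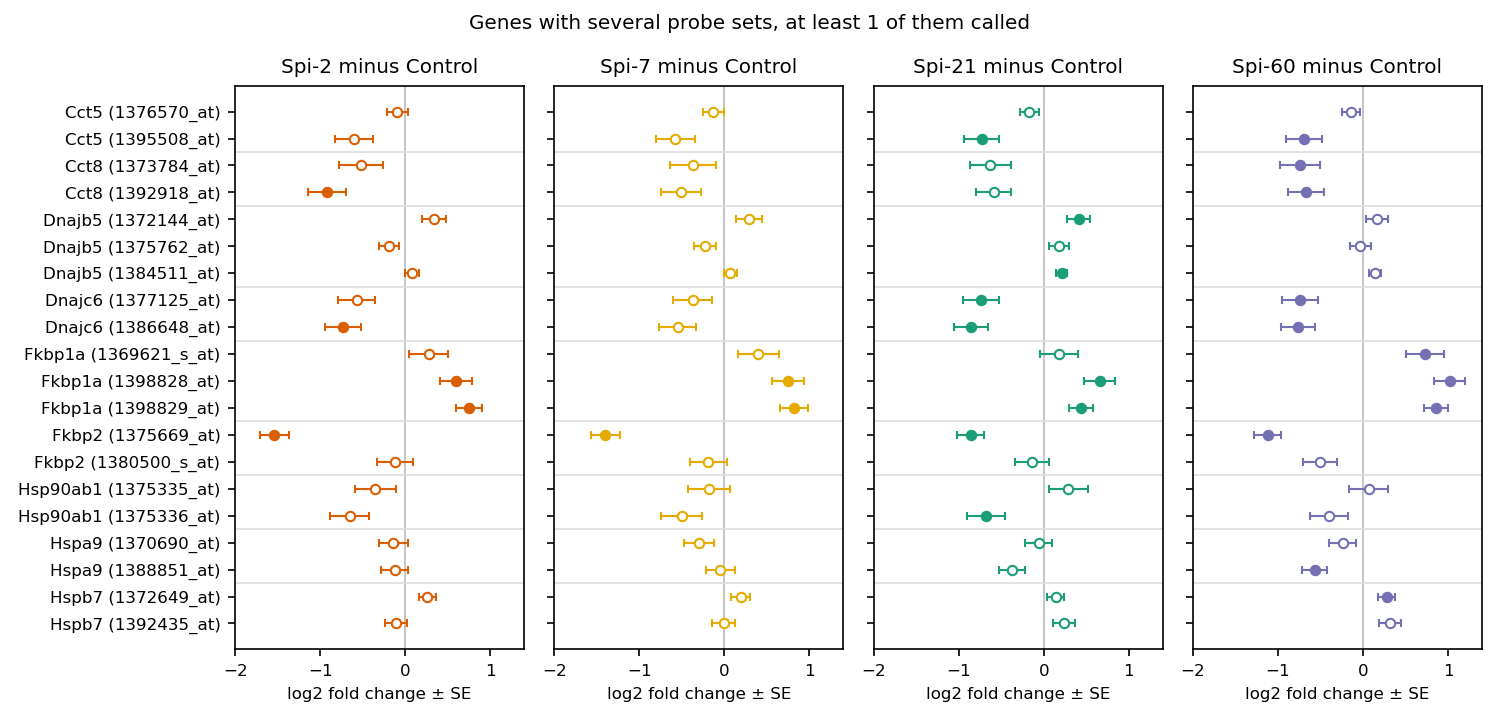
Log2 fold change against Control with its SE (x axis) for each probe set of the 9 genes that have several probe sets and at least 1 call, in Spi-2, Spi-7, Spi-21 and Spi-60. Filled points were called. Both probe sets of Dnajc6 and all 3 of Fkbp1a lie on one side of 0, whereas Fkbp2 differs by probe set at day 2 (-1.54 and -0.12).

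Among the 20 genes with several probe sets, all probe sets were called at some day for 3 (Cct8, Dnajc6 and Fkbp1a), some for 6 (Cct5, Dnajb5, Fkbp2, Hsp90ab1, Hspa9 and Hspb7) and none for 11. Cct5 changed by -0.73 at day 21 by 1395508_at, with no overlap with Control, and by -0.17 by 1376570_at. Dnajb1, Bag3 and Hspb8, which heat and misfolded proteins can induce, were not called at any day. Dnajb1 changed by 0.33 and 0.22 at day 2 by its 2 probe sets, Bag3 by -0.03 and Hspb8 by -0.22 and 0.09. Of the members with the heat shock element, Hspd1, Hspe1, Hsph1 and Cct4 were lower at day 2 and Dnaja1 was not called, as given above. Fkbp5, which glucocorticoids induce, had changes of 0.46, 0.48, 0.57 and 0.53 at days 2, 7, 21 and 60 by 1388901_at (SE 0.20 to 0.22, adjusted p between 0.0511 and 0.279, limma) and -0.02 to 0.22 by 1380611_at. Dnajb1, Bag3, Hspb8 and Fkbp5 were named after their values were seen, and a missed threshold does not show that their levels stayed the same.

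Other genes of the chaperone system, from a list of 37, were measured for 26, and 8 of their 28 probe sets passed the F-test, beside 16.2% of all probe sets. Called lower and higher were 4 and 1 in Spi-2, 3 and 0 in Spi-7, 3 and 3 in Spi-21 and 5 and 3 in Spi-60. Of all probe sets these were 4.98% and 3.9%, 1.67% and 0.914%, 10.7% and 5.94%, and 9.89% and 7.2%. Prefoldin, which hands unfolded actin and tubulin to the CCT complex, gave 3 of the 8 that passed the F-test. Pfdn5 averaged 6.44 ± 0.29 in Spi-2 (SD, n = 6) and 6.29 ± 0.24 in Spi-60 (SD, n = 8), against 7.42 ± 0.34 in Control (SD, n = 4), changes of -0.98 and -1.13 (adjusted p = 0.000116 and 7.24e-06, limma). Pfdn6 was lower early (-1.34 at day 2 and -1.15 at day 7, adjusted p = 0.000977 and 0.0124) and Pfdn2 at days 2, 7 and 60 (-0.64, -0.60 and -0.58, adjusted p between 0.00131 and 0.00933, limma). Sugt1, a cochaperone of Hsp90, was lower at days 2, 21 and 60 and Chordc1, another, at days 21 and 60 (-0.71 and -0.64). Unc45a, a chaperone of myosin, was higher at days 2, 21 and 60 (0.62, 0.54 and 0.53), and Hsf4, a heat shock transcription factor, at days 21 and 60 (0.63 and 0.80). Sil1, the exchange factor of Hspa5, passed the F-test with no call at any day. Hsf1 and Hsf2 were not called (adjusted p = 0.313 and 0.432 in the F-test).

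With the Gapdh 3′ to 5′ difference of each array as a covariate, 24 members passed the F-test over 5 groups, beside 14.7% of all probe sets. The contrasts lost calls unevenly. Of the 15 calls in Spi-2, 9 held, of the 8 in Spi-7 4, of the 31 in Spi-21 27 and of the 35 in Spi-60 7. The 7 held at day 60 were Hspa13, Hsph1, Hspa9, Fkbp2, Fkbp1a (1398829_at), Fkbp8 and Hspbp1. Over all probe sets the covariate left 5.95% called in Spi-2, 1.47% in Spi-7, 15.2% in Spi-21 and 2.07% in Spi-60. The Gapdh difference was 2.99 to 3.97 in Spi-60 and 1.8 to 2.5 in Control, so that these groups do not overlap in it. Without replicates 1 to 3 of Spi-21, a choice made after the data were seen, 6 of the 31 calls held in Spi-21 (Hspa13, Hsph1, Hspe1, Fkbp2, Dnajc21 and Dnajc24). No other member was newly called, so that 6 of 102 members were called, beside 5.27% of all probe sets. The other 25 of the 31 calls kept their sign and had an adjusted p of 0.0528 to 0.317. Among them were Hspa4l (change -0.63, adjusted p = 0.0744), Tcp1 (-0.45, 0.126), Dnajc9 (-0.51, 0.0595) and Dnajc6 (-0.61 and -0.62, 0.109 and 0.0624), both probe sets of Fkbp1a called in Spi-21 (0.43 and 0.45, 0.124 and 0.0759) and Fkbp8 (0.30, 0.166). Cdc37 (0.40, 0.122), Hspbp1 (0.41, 0.0729), Hsp90ab1 (-0.80, 0.0534), Bag5 (-0.46, 0.0743), Cct5 (-0.60, 0.0856) and Ppid (-0.67, 0.0819) were also lost, as were Dnajc3 and both probe sets of Dnajb5. Without replicate 5 of Spi-7 all 8 calls in Spi-7 held, with changes between -1.57 and 0.87, and Ppid had -0.38 (adjusted p = 0.589, limma). Fkbp2 (1375669_at) and Hspa13 kept their calls at all 4 days under every alternative run.

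Single animals decided some calls of the named members. Without Control replicate 2 the calls of Hsph1 at day 7, Dnajc21 at day 2 and Cdc37 at day 21 were lost, without Control replicate 3 those of Hspe1 at day 7 and Dnajc6 (1377125_at) at day 21, and without either Control replicate 2 or 4 those of Fkbp8 at day 21 and Dnajc24 at day 60. Dnajc7 lost its call at day 7 without Control replicate 1 or 4 or Spi-7 replicate 2. Fkbp1a by 1398828_at lost its calls at days 2 and 7 without any 1 of Control replicates 1 to 3, and by 1398829_at its call at day 21 without Control replicate 2 or 3 or Spi-21 replicate 2 or 4. The calls of Hsp90ab1 and Dnajb5 (1372144_at) at day 21 and of Hspb7 at day 60 were lost without any 1 of the 4 Control animals, and that of Cct7 at day 2 without Control replicate 1, 3 or 4. Dnajc3 at day 21, with an adjusted p of 0.0496, lost its call under 25 of 38 alternatives.

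**Figure D5:**
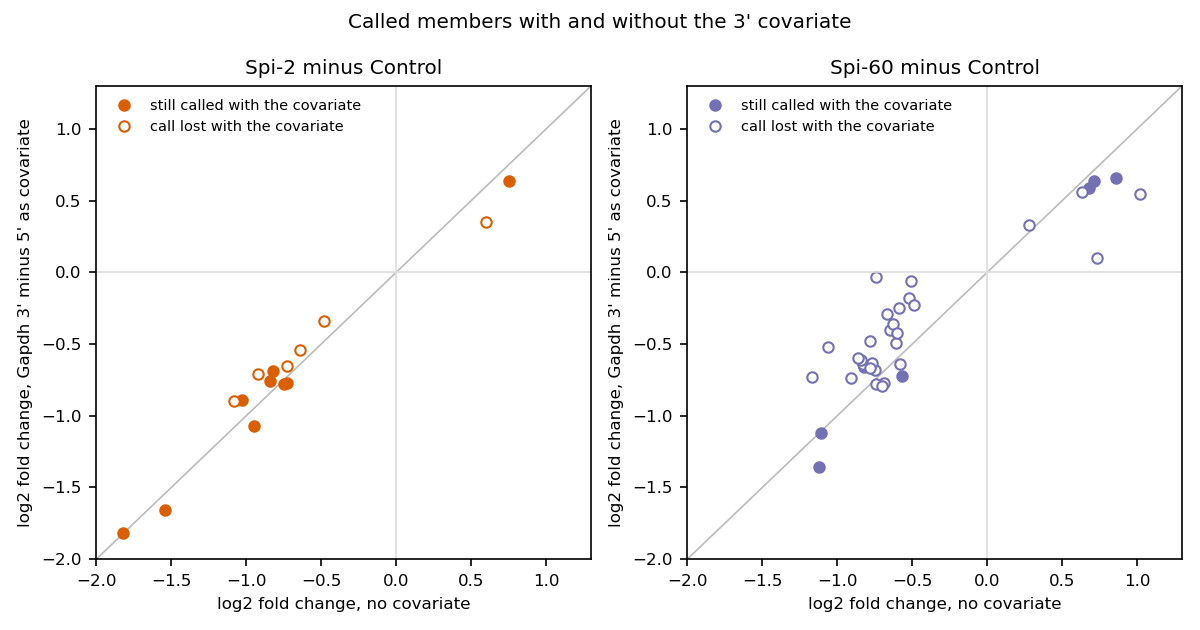
Log2 fold change against Control without a covariate (x axis) and with the Gapdh 3′ minus 5′ difference as covariate (y axis), for the 15 members called in Spi-2 and the 35 called in Spi-60. Filled points were still called with the covariate (9 and 7), open points were not, and the line marks equal values; all calls kept their sign.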

How the data were processed

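Expression was measured on Affymetrix rat genome arrays in 31 animals of 5 groups. The deposited values are log2 RMA summaries; the authors kept the probe sets that Ensembl annotates, corrected the background and quantile normalized (RMA version not given in the sources used here). This leaves 12919 probe sets, of which 6 Affymetrix controls were left out. A model with 1 mean per group was fitted to the other 12913 with limma 3.58.1 in R 4.3.3, all p adjusted by Benjamini-Hochberg over all of them and contrasts two-sided. Smaller fits took the 15 arrays of Control, Spi-2 and Spi-7 and the 16 of Spi-21 and Spi-60. The scripts were tested on simulated data.

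Symbols come from GEO's platform annotation (11880 probe sets with 1 symbol, 320 with several, 713 with none), and all 102 member probe sets matched a RefSeq gene of that symbol. Promoter sequences are RefSeq's, build GRCr8. The members and gene lists were chosen with earlier results of these data known. Named were members called in the F-test, the family member with the smallest p where none was, members with the largest or smallest called change at a day, and genes whose probe sets disagreed; others are marked in the text. Replicates are separate animals, whose number limits the precision. Alternatives were a further quantile normalization, the dimmest 25% of probe sets left out, a replicate block, array weights, the Gapdh covariate, 2 groups alone and each animal left out.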

Additional observations from a re-analysis of the deposited data

Results flagged for a closer look

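Of 120 sets of animals (24 member probe sets called over the 5 groups, in each of the 5 groups), 7 held an animal set far from the others by Dixon's test, which chance gives in about 1 of 20. Spi-7 replicate 5 accounts for 3 of them: Ppid at 8.58 (others 9.91 to 10.01), Dnajc24 at 6.37 (7.1 to 7.33) and Dnajc21 at 5.38 (5.81 to 5.98). Its array also had the lowest interquartile range of its group, 1.75. Without it the F-test over 5 groups called 31 members, beside 21.9% of all probe sets (24 and 16.2% with it). Spi-7 against Control called 8 without it, beside 2.69% of all probe sets, and 8 with it.

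Fkbp2 (1375669_at) stood at 10.44 in Control replicate 1 (others 9.42 to 9.45). Dnajc6 (1386648_at) stood at 7.42 in Spi-2 replicate 2 (others 6.23 to 6.63), and Hspbp1 at 7.33 in Spi-2 replicate 3 (others 6.71 to 6.93). Hsph1 stood at 4.23 in Spi-60 replicate 6 (others 4.74 to 5.2).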

How the results depend on the processing

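No call changed its sign under the 38 alternatives. Of the 89 calls of members at single days, 64 were lost under at least 1 alternative, 305 losses in 3320 refits. For the 24 members called over the 5 groups, each at its day of smallest p and with animals of the groups compared left out, 10 of 429 values lost the call and 12 gained one. Array weights raised the count of members called over the 5 groups to 40 and over Control, Spi-2 and Spi-7 to 15, beside 31.6% and 8.21% of all probe sets (16.2% and 3.01% without weights). The Gapdh covariate left 5 calls in Spi-7 and 8 in Spi-60, with Hsp90ab1 newly called in both and in Spi-2, and gave 14 over Control, Spi-2 and Spi-7. The shares of all probe sets were 1.47%, 2.07% and 3.64%. Without Spi-21 replicates 1 to 3, chosen after seeing the data, Spi-21 had 6 calls and Spi-60 against Spi-21 had 2 (Fkbp1a and Dnajc2), beside 5.27% and 0.496%. The causes were not tested. With 1 animal left out, calls ran from 5 to 8 in Spi-7 (5 without Control replicate 3, beside 1.14% of all probe sets). They ran from 19 to 36 in Spi-21 (20 and 19 without Control replicates 2 and 3, beside 9.27% and 9.88%). Over Control, Spi-2 and Spi-7 they ran from 5 to 15 (5 without Control replicate 3, 15 without Spi-2 replicate 2, beside 0.798% and 4.51%).

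The animals share only replicate numbers: 51 same-numbered pairs correlated at a median of -0.0414 (-0.333 to 0.355), 11 above 0.1. With a replicate block 3 members passed over Control, Spi-2 and Spi-7 (Hspa13, Hsph1 and Fkbp2) and 25 over the 5 groups, beside 0.194% and 15.4% of all probe sets. Called against Control were 14 in Spi-2, 7 in Spi-7, 32 in Spi-21 and 33 in Spi-60, beside 7.15%, 1.85%, 16.3% and 17.3%. The number of animals limits what small changes can be seen. Under all alternatives run, 9 of 15 calls in Spi-2, 3 of 8 in Spi-7, 6 of 31 in Spi-21 and 7 of 35 in Spi-60 held. Hsph1 was not in the fit without the dimmest 25% of probe sets.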
